A study of Mus musculus with 16 samples.

Results

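DNA methylation of the clustered protocadherin locus was followed through chemical reprogramming of mouse fibroblasts. The locus was taken as chr18:37055000-37985000 of the GRCm39 build, a stretch of 930 kb. Within it lie an alpha part of 258 kb at chr18:37063000-37321000, a gamma part of 175 kb at chr18:37800000-37975000, and between them a beta part of 479 kb. A site is a cytosine of a CpG on either strand, and its level is the percentage of reads that still showed cytosine after bisulfite conversion. Sites were selected by coverage: each had at least 10 reads in all 16 libraries. This gave 1015 of the 3835 sites of the locus that were listed in any library (26.5%), lying at 632 distinct CpGs. The same rule kept 873038 of 3179510 sites in the whole series (27.5%), of which 872023 lay outside the locus. The alpha part held 259 of the selected sites, the beta part 196 and the gamma part 538, with 22 more at the edges of the locus. The locus was picked out for description with a stretch of neighbouring regions of lower methylation at day 12 already known, so day 12 against day 0 is given as a description with no p, and nothing is read from its counts of called regions. Comparisons of iPSC with day 12 use the same day 12 libraries, and those of iPSC with day 0 use the same day 0 libraries.

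The libraries were made by reduced representation bisulfite sequencing (RRBS), which cuts DNA with MspI and so reads mainly fragments dense in CpG. Induced pluripotent stem cells from the reprogramming, labelled riPSCs and called iPSC here, had 2 libraries, kept on feeder cells in a stem cell medium with N2, B27, mLIF, CHIR99021 and PD0325901. Cells in reprogramming medium were collected at days 2, 4, 6, 8, 10 and 12 (D2 to D12), with 2 libraries each, and medium was renewed every 2 days, or daily between days 4 and 8. The starting cells, D0, were OG2 mouse embryonic fibroblasts of passages 1 to 3 from 129XOG2 embryos at E13.5, with 2 libraries, and every group carries that same background. OG2 mice carry a GFP reporter driven by regulatory sequence of Pou5f1 (Oct4). The labels do not say whether the 2 libraries of a group came from separate cultures, so all tests measure the spread between libraries, which may be technical. They also do not say from which day or how many clones the iPSC came, or whether feeder cells were removed before DNA was taken. RNA was not measured in these libraries, so the cell labels were not checked against marker expression.

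Clustered protocadherins are cell adhesion proteins of the cadherin family, best known from neurons, where each cell expresses a small, partly random set that marks its surface. In the alpha and gamma clusters a long row of variable exons, each with a promoter of its own, is spliced to a set of constant exons shared by the whole cluster at its far end. Beta genes each consist of a lone coding exon and have no shared constant part. In mouse embryos, DNA methylation at the variable promoters, laid down largely by Dnmt3b, is known to affect which of them can be used, and the insulator protein CTCF binds many of the unmethylated ones. In the RefSeq gene table of GRCm38.p6 the order is 14 alpha genes from Pcdha1 to Pcdhac2, 22 beta genes from Pcdhb1 to Pcdhb22, and 22 gamma genes from Pcdhga1 to Pcdhgc5, of which 21 are protein coding. Coordinates of that build were not carried over, and regions are therefore named by their GRCm39 position and not by gene or exon.

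The read counts at all sites of a library, where a read counts at every site it covers, summed to between 39011213 (D6 replicate 1) and 107834007 (D0 replicate 1), and a library listed 1480222 to 2516218 sites. Within the locus the selected sites took read counts of 41327 to 94876 per library, and the median site had 32 to 66 reads. Of the 1015 sites, 83 had exactly 10 reads in their shallowest library and 517 had at least 20 in every library. The 182 sites just inside the limit, at 10 to 12 reads in the shallowest library, averaged 26.1% in iPSC, 22.1% at D12 and 42.9% at D0. The 218 sites just outside, listed in 15 libraries, averaged 26.2%, 23.0% and 38.5% in the same groups, and were missing most often from D6 replicate 1 (48 sites), D2 replicate 1 (40 sites) and iPSC replicate 1 (31 sites). Bulk DNA was read, so a lower share of methylated cells or alleles and partial methylation within each of them cannot be told apart.

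The locus lost methylation between D4 and D12, and in iPSC it stood between the D12 and the D0 level. The mean level of the 1015 sites was 44.7% and 44.3% in the D0 libraries, 42.9% and 42.7% at D2, 43.8% and 45.5% at D4, 41.1% and 39.97% at D6, 33.8% and 32.7% at D8, then 29.5% and 26.9% at D10, and 19.8% and 19.3% at D12. The iPSC libraries had 29.9% and 30.7%. The D2 libraries lay just under both D0 libraries, the D4 libraries lay on either side of them, and from D6 on both libraries of each day lay below all libraries of the earlier days. D12 averaged 19.5% ± 0.38 and D0 44.5% ± 0.31 (SD, n = 2 each), a difference of -24.9 ± 0.35 percentage points (SE). The iPSC mean of 30.3% ± 0.56 was 14.2 points below D0 (iPSC minus D0 -14.2 ± 0.45, SE) and 10.8 points above D12 (iPSC minus D12 10.8 ± 0.48, SE). The libraries of these groups did not overlap in any of the 3 comparisons. With 2 libraries against 2 the exact two-sided permutation test cannot give a p below 0.333, and it gave 0.333 for both iPSC comparisons.

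The iPSC level above D12 held for sites shared by all libraries and not for every choice of sites. When each library was given all the sites it listed, the mean was 30.3% in iPSC and 32.7% at D12, so that iPSC minus D12 turned to -2.41 points. The same choice gave -5.37 points in the alpha part and -8.84 points in the gamma part, while the beta part kept a positive difference of 19.6 points. These means run over different sites in different libraries.

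The beta part had the largest loss and the largest regain of the 3 parts. It averaged 63.9% ± 0.02 at D0, 60.6% ± 0.43 at D2, 62.4% ± 1.7 at D4, 54.8% ± 1.8 at D6, 42.8% ± 0.03 at D8, then 34.4% ± 2.5 at D10 and 19.4% ± 1.2 at D12, and 57.9% ± 0.27 in iPSC (SD, n = 2 in each group). D12 was 44.4 points under D0 (D12 minus D0 -44.4 ± 0.81, SE). In iPSC the beta part was 38.5 ± 0.83 points above D12 and 5.97 points below D0 (iPSC minus D0 -5.97 ± 0.19, SE).

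The alpha part started lower and moved less. It averaged 35.4% ± 0.01 at D0, 34.8% ± 0.49 at D2, 35.6% ± 1.8 at D4, 30.4% ± 0.70 at D6, 26.4% ± 0.35 at D8, then 22.3% ± 2.6 at D10 and 17.7% ± 1.8 at D12, and 23.2% ± 0.90 in iPSC. D12 minus D0 was -17.7 ± 1.3 points, iPSC minus D0 -12.2 ± 0.64 points and iPSC minus D12 5.44 ± 1.4 points (SE). The iPSC alpha level was thus nearer to D12 than to D0.

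Over all its selected sites the gamma part regained the least, and at D6 it was still within 1.83 points of D0, against differences of -9.11 points in beta and -5.02 points in alpha. It averaged 43.1% ± 0.31 at D0, 41.7% ± 0.37 at D2, 44.0% ± 0.68 at D4, 41.3% ± 1.3 at D6, 34.2% ± 1.7 at D8, then 29.6% ± 1.2 at D10 and 21.0% ± 0.40 at D12, and 24.5% ± 0.79 in iPSC. D12 minus D0 was -22.1 ± 0.36 points and iPSC minus D0 was -18.6 ± 0.60 points. iPSC minus D12 was 3.52 ± 0.63 points (SE), with libraries at 24.0% and 25.1% in iPSC against 20.7% and 21.3% at D12. In each of the 3 parts the libraries of iPSC, D12 and D0 did not overlap in these 3 comparisons, and the exact permutation p of the iPSC comparisons was again 0.333. In 1-kb regions with 1 to 4 CpGs, however, the 3 parts regained about as much as each other. The gamma sites of this class had 53.2% in iPSC and 21.0% at D12, against 48.3% and 16.4% in alpha and 51.1% and 18.2% in beta in those groups. These means rest on few sites: 18 in gamma, 26 in alpha and 40 in beta.

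**Figure D1:**
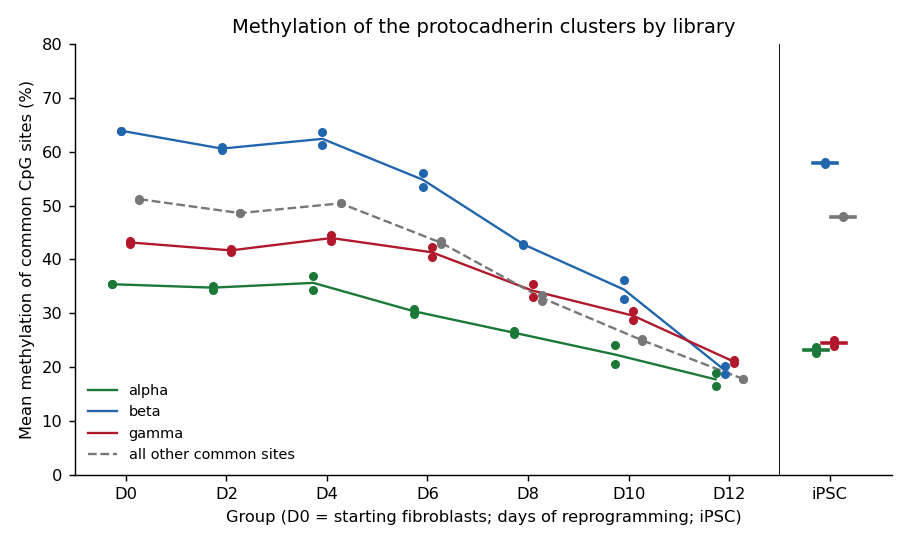
Mean methylation level (%, vertical axis) of the selected sites of the alpha, beta and gamma parts and of all other sites selected by the same rule, by group (horizontal axis: D0 to D12, then iPSC). Each point is 1 library and lines or bars mark the mean of 2. At D12 the 3 parts lie between 17.7% and 21.0%, and in iPSC the beta part stands at 57.9% while alpha and gamma stay at 23.2% and 24.5%.

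The differences between parts were tested over the 16 libraries with a permutation test of the group labels on the between-group F statistic, with 100000 resamples, and p-values were adjusted over 5 such differences by the Benjamini-Hochberg method. Beta minus alpha was 34.7 ± 1.2 points in iPSC, 1.72 ± 0.62 points at D12 and 28.5 ± 0.03 points at D0 (SD, n = 2 each), and differed among the 8 groups (permutation p = 1e-05, the smallest these resamples can give, adjusted p = 1.25e-05). Gamma minus beta was -33.4 ± 1.1 points in iPSC, 1.58 ± 1.6 points at D12 and -20.7 ± 0.33 points at D0, with the same permutation p of 1e-05. Gamma minus alpha varied over a smaller range, between 1.38 points in iPSC and 10.9 points at D6, with 3.30 points at D12 and 7.76 points at D0 (permutation p = 0.00224, adjusted p = 0.00224). Its change from D0 to D12, -4.45 points over these sites, turned to 3.07 with each 1-kb region counted equally, to 1.10 with strands merged and to 6.505 over regions with 1 to 9 CpGs. With the D12 libraries left out, a choice made after the data were seen, the permutation p was 6e-05 for beta minus alpha (adjusted p = 7.5e-05), 2e-05 for gamma minus beta (adjusted p = 5e-05) and 0.0143 for gamma minus alpha (adjusted p = 0.0143).

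The distance of beta from the other parts in iPSC was far smaller where CpGs were few. Over 1-kb regions with 1 to 9 CpGs the iPSC means were 54.8% in beta, 46.4% in alpha and 45.1% in gamma. With 1 to 4 CpGs the iPSC means were 53.2% in gamma, from 18 sites in 3 regions, and 51.1% in beta, from 40 sites in 11 regions. Over regions with 1 to 9 CpGs beta minus alpha was 8.43 points in iPSC and 10.9 points at D0. This was a change of -2.45 ± 2.5 points (SE), where over all selected sites it grew. Gamma minus beta changed by 1.51 ± 3.3 points from D0 to iPSC in these regions. The libraries overlapped in both. With the D12 libraries included, the permutation p over such regions was 0.03 for beta minus alpha (adjusted p = 0.04). It was 0.00646 for gamma minus beta (adjusted p = 0.0129) and 0.0572 for gamma minus alpha (adjusted p = 0.0572). The adjustment ran over fewer differences than for all selected sites. No test without D12 was run over these regions. These p-values therefore cannot decide whether the differences changed among the other groups.

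Taken over all selected sites, the rest of the genome moved further down and came back further than the locus. All other sites averaged 47.9% ± 0.09 in iPSC, 17.8% ± 0.06 at D12 and 51.2% ± 0.09 at D0 (SD, n = 2 each). The locus minus these sites was -17.6 ± 0.65 points in iPSC, 1.70 ± 0.32 points at D12 and -6.70 ± 0.41 points at D0. This difference changed among the 8 groups (permutation p = 1e-05, adjusted p = 1.25e-05) and among the 7 without D12 (permutation p = 3e-05, adjusted p = 5e-05). From D0 to D12 it changed by 8.41 ± 0.37 points and from D0 to iPSC by -10.9 ± 0.54 points (SE), with no overlap of libraries. Over regions of 20 or more CpGs per kb alone, the change from D0 to D12 was instead -10.3 points. There the locus minus other sites was 4.54 and 2.80 points in the D12 libraries and 3.22 and 3.92 points in the iPSC libraries. In such regions the other sites thus did not come back further than the locus.

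For regional changes the genome was divided into tiles of 1 kb, and 94337 tiles with at least 3 selected sites were tested in 1 fit over all libraries. A tile was called when edgeR's quasi-likelihood test gave a Benjamini-Hochberg adjusted p under 0.05 and the means of the groups were at least 10 points apart. The locus held 70 such tiles of the 86 with any selected site: 18 in alpha, 17 in beta, 34 in gamma and 1 at the edge.

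No tile of the locus was called lower or higher at D2 or D4 by edgeR, where 0.0488% and 0.0763% of all tiles were lower. At an unadjusted p under 0.05 there were 4 tiles at D2, against 4.90% of all tiles, and 2 at D4, against 5.95%. A quasi-binomial model called 0 in both, against 0.375% and 0.837% of all tiles. Calls began at D6, with 6 of 70 tiles lower against 21.3% of all tiles: 2 in alpha, 4 in beta and 0 in gamma. The quasi-binomial model called 9 at D6, 1 of them in gamma, against 31.9% of all tiles, and 3 gamma tiles passed an unadjusted edgeR p under 0.05, against 41.2% of all tiles. At D8 there were 38 lower tiles, against 72.3% of all tiles, made up of 10 of 18 in alpha, 15 of 17 in beta and 13 of 34 in gamma. At D10 there were 47, against 81.6% of all tiles, with 12 in alpha, 16 in beta and 19 in gamma. The gamma share was thus behind the beta share on each of these days, with median differences from D0 of -4.88 points in gamma and -10.5 points in beta at D6, -11.8 points in gamma and -22.4 points in beta at D8, and -17.3 points in gamma and -33.1 points in beta at D10. The D6 count rested on all 4 libraries: 0 tiles were called without D0 replicate 1, D0 replicate 2 or D6 replicate 2, and 1 without D6 replicate 1. The counts at D8 and D10 fell to 13 and 22 when a difference of 25 points was asked for.

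**Figure D2:**
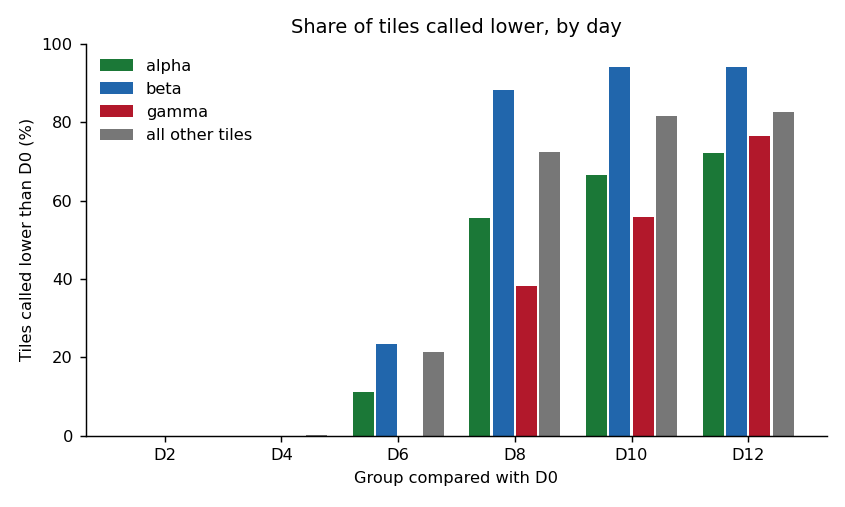
Share of 1-kb tiles called lower than D0 (%, vertical axis) on each day (horizontal axis) in the alpha (18 tiles), beta (17), gamma (34) parts and in all other tiles. Beta tiles reach 15 of 17 at D8, while gamma tiles stand at 13 of 34 on that day and 26 of 34 at D12.

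At D12, 55 of the 70 tiles were lower than D0, against 82.7% of all tiles, and 0 were higher, against 0.649% of all tiles. No tile was higher at an unadjusted edgeR p under 0.05 with 10 points, and the quasi-binomial model called 1 higher. The lower tiles were 13 of 18 in alpha, 16 of 17 in beta and 26 of 34 in gamma. Median differences were -29.1 points over the locus, -23.6 in alpha, -48.1 in beta and -26.8 in gamma, against -45.9 points over all tiles. No gamma tile fell by 50 points or more, whereas 4 alpha and 6 beta tiles did. Over all tiles 41.0% fell that far.

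Where D0 was at least 20%, the locus tiles kept a median of 38.5% of their D0 level at D12, against 26.5% over all tiles of the genome. The medians were 43.4% in gamma, 33.4% in alpha and 28.7% in beta. Tiles ranged from 14.7% kept, in beta, to 79.0% kept, in gamma.

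The steepest loss was in the tile at chr18:37795001-37796000, close to the border of the beta and gamma parts. It had 13.9% and 8.497% at D12 and 72.8% and 79.8% at D0, a difference of -65.1 points. Its iPSC libraries, at 45.4% and 38.3%, lay between the other groups and were called both below D0 and above D12. In the beta part the tile at chr18:37369001-37370000 had 16.8% and 17.3% at D12 against 72.1% and 75.8% at D0. The beta tiles at chr18:37546001-37547000 and chr18:37698001-37699000 fell by 56.4 and 55.7 points at D12, and the alpha tile at chr18:37179001-37180000 fell by 63.9 points.

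The tiles with the highest D12 level of each part differed in what iPSC showed. The highest D12 level of the locus was at chr18:37819001-37820000 in gamma, with 63.1% and 60.04% in iPSC, 43.0% and 62.2% at D12 and 83.1% and 79.6% at D0. The D12 libraries of this tile lay far apart, and both lay below D0. In alpha the highest was chr18:37065001-37066000, with 34.7% and 44.5% in iPSC, 35.1% and 48.2% at D12 and 64.3% and 65.4% at D0. Here iPSC and D12 overlapped, and both were called below D0, though the call for iPSC was lost without iPSC replicate 1 (edgeR adjusted p = 0.0688). In beta the highest was chr18:37709001-37710000, with 68.6% and 73.4% in iPSC, 33.6% and 33.7% at D12 and 81.6% and 85.3% at D0.

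The lowest D12 levels of alpha and beta differed in the other groups. The tile at chr18:37277001-37278000 in alpha, with 62 CpGs the most CpG-dense of the named tiles, had 10.1% and 5.22% in iPSC, 7.01% and 5.90% at D12 and 5.64% and 6.86% at D0. Its groups overlapped and it was called in none of the comparisons. The lowest D12 level in beta, 7.50% and 2.02% at chr18:37427001-37428000, rested on 3 sites with 33 to 215 reads in all per library. It had 21.3% and 19.4% in iPSC and 24.2% and 26.7% at D0, and both D8 libraries stood above D12, at 19.6% and 50.0%. It was called lower at D12 than at D0, by 20.7 points (D12 minus D0 -20.7). In iPSC it was 15.5 points above D12, a call that was lost without D12 replicate 2 or iPSC replicate 1. The tile was named for its low D12 level, so this difference is given as a description with no p.

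In iPSC many tiles of the locus stood below their fibroblast level, most often in gamma. Of the 70 tiles, 28 were lower in iPSC than at D0, against 9.42% of all tiles, and 1 was higher, against 4.02% of all tiles. By part, 19 of 34 gamma tiles, 5 of 18 alpha tiles and 4 of 17 beta tiles were lower. The median difference from D0 was -11.1 points over the locus, and -15.6 in gamma, -6.68 in alpha and -5.47 in beta, against -1.76 points over all tiles. The count of 28 fell when any 1 of the 4 libraries compared was left out, and a minimum of 25 points left 15. Of the 55 tiles lower at D12, 24 were also lower in iPSC (43.6%), against 11.2% of all tiles lower at D12, and 31 were not called there (56.4%), against 85.2%. Both calls use the same D0 libraries, so this overlap is given as a description only. A further 4 tiles were lower in iPSC without a call at D12 (5.71% of the locus tiles), against 0.201% of all tiles. Where D0 was at least 20%, iPSC held a median of 77.5% of the D0 level over the locus and 56.8% in gamma, 79.5% in alpha and 86.3% in beta, against 96.9% over all tiles.

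**Figure D3:**
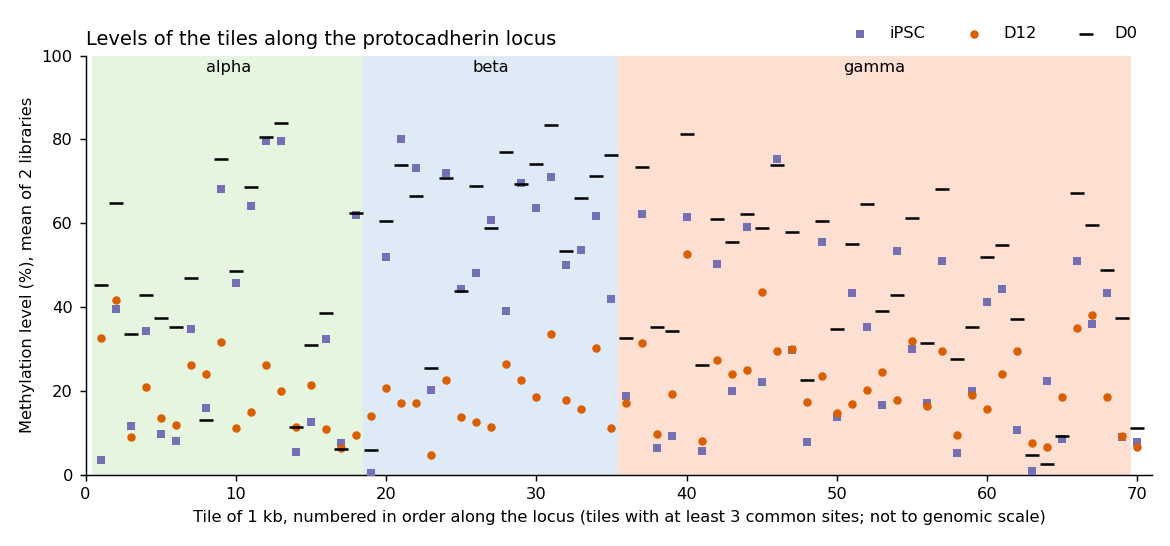
Methylation level (%, vertical axis, mean of 2 libraries) of each of the 70 tiles in order along the locus (horizontal axis, tile number, not to genomic scale), with iPSC as squares, D12 as circles and D0 as dashes. In beta the iPSC squares lie near the D0 dashes in most tiles, whereas 16 of 34 gamma tiles and 7 of 18 alpha tiles have an iPSC mean below their D12 mean, against 11.4% of all tiles.

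The tile with the largest drop in iPSC was the first of the alpha part, chr18:37063001-37064000. It had 0 of 132 reads methylated in iPSC replicate 1, which allows a level of up to 2.27%, and 7.26% in iPSC replicate 2 (95% Wilson interval 4.59 to 11.3%). It had 27.3% and 37.8% at D12 and 45.1% and 45.5% at D0. The iPSC libraries lay below all others, and iPSC minus D0 was -41.6 points (edgeR adjusted p = 0.00694) and iPSC minus D12 -28.9 points (edgeR adjusted p = 0.00308). D12 minus D0 was -12.8 points and was not called.

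In gamma the tile at chr18:37828001-37829000 had 21.9% and 17.9% in iPSC, 25.9% and 22.3% at D12 and 53.2% and 57.9% at D0. iPSC minus D0 was -35.6 points (edgeR adjusted p = 0.000449), and iPSC and D12 differed by less, -4.19 points (edgeR adjusted p = 0.293). The tile at chr18:37840001-37841000 had 23.1% and 21.4% in iPSC, 37.1% and 50.0% at D12 and 48.4% and 69.2% at D0. Its call against D0, -36.5 points with an edgeR adjusted p of 0.00926, did not survive the loss of D0 replicate 2 (edgeR adjusted p = 0.0802) or of either iPSC library (edgeR adjusted p = 0.0566 and 0.0572). In beta the tile at chr18:37677001-37678000 had 24.8% and 53.3% in iPSC against 78.3% and 75.8% at D0, which is 38.0 points less (iPSC minus D0 -38.0, edgeR adjusted p = 0.00989). The iPSC libraries of this tile lay far apart, and the adjusted p by edgeR was 0.0666 without iPSC replicate 1 and 0.0715 without D0 replicate 1.

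The 1 tile higher in iPSC than at D0 lay near the far end of gamma, at chr18:37940001-37941000, and held 41 CpGs. It had 24.6% and 20.0% in iPSC, 6.13% and 7.27% at D12 and 4.09% and 0.875% at D0. The difference from D0 was 19.8 points (edgeR adjusted p = 0.0317). It was not called without any 1 of the 4 libraries compared, where the edgeR adjusted p was lowest without D0 replicate 1, at 0.0513, and highest, at 0.185, when D0 replicate 2 was left out. The tile just before it, chr18:37939001-37940000, named after its values were seen, had a mean of 0.833% in iPSC, 7.56% at D12 and 4.81% at D0 and was not called.

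Between iPSC and D12, 34 of 70 tiles were higher in iPSC, against 79.8% of all tiles, and 5 were lower, against 1.48% of all tiles. The higher tiles were 15 of 17 in beta, 8 of 18 in alpha and 11 of 34 in gamma. The lower tiles were 1 in alpha, 1 in beta and 3 in gamma, and the count was 3 without D12 replicate 2 and 2 without iPSC replicate 2. The median difference was 15.3 points over the locus, 35.6 in beta, 5.57 in alpha and 0.91 in gamma, against 43.7 points over all tiles.

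The tiles with the largest gains over D12 came back to about the D0 level. The beta tile at chr18:37369001-37370000 had 80.3% and 79.9% in iPSC, 63.1 points above D12. This tile was also named for its loss at D12, so the difference is given as a description with no p. The beta tile at chr18:37418001-37419000 had 73.2% and 73.0% in iPSC, 17.0% and 17.3% at D12 and 67.1% and 65.7% at D0. In alpha the neighbouring tiles at chr18:37178001-37179000 and chr18:37179001-37180000 were 53.4 and 59.5 points above D12, and chr18:37289001-37290000 was 52.4 points above. All 5 of these tiles had no call between iPSC and D0.

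Among the tiles lower in iPSC than at D12, chr18:37899001-37900000 in gamma rested on the most sites, 33. It had 8.53% and 12.6% in iPSC, 32.5% and 26.3% at D12 and 35.6% and 38.9% at D0. iPSC minus D12 was -18.8 points (edgeR adjusted p = 0.000264) and iPSC minus D0 was -26.7 points (edgeR adjusted p = 0.00067). D12 minus D0 was -7.84 points and was not called, with both D12 libraries below both D0 libraries. The other lower tiles were chr18:37063001-37064000 and chr18:37840001-37841000, described above, chr18:37813001-37814000 in gamma at -10.1 points and chr18:37351001-37352000 in beta at -13.7 points. The last of these had 0.450% and 0.413% in iPSC, 22.03% and 6.21% at D12 and 10.9% and 0.890% at D0, with D12 and D0 overlapping. The calls of the tiles at 37813001, 37840001 and 37351001 were lost when certain libraries were left out, with edgeR adjusted p up to 0.156 without iPSC replicate 2, 0.122 without D12 replicate 2 and 0.119 without D12 replicate 1 for the tiles in that order.

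The number of CpGs in a tile moved with these results, and the parts differ in it. The CpGs that appear in at least 1 library were counted in each tile, and tiles with 20 or more held 50.3% of the selected sites of the locus, against 21.8% elsewhere. The share was 67.2% in alpha, 57.1% in gamma and 15.3% in beta, where it came from 1 tile. In tiles with 20 or more CpGs the locus averaged 21.4% ± 0.37 in iPSC, 18.3% ± 1.1 at D12 and 36.3% ± 0.42 at D0, against 17.8% ± 0.12, 14.6% ± 0.09 and 22.3% ± 0.09 for all other sites of such tiles in these groups (SD, n = 2). CpG-rich tiles of the locus thus started higher than CpG-rich tiles elsewhere and ended close to them.

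In tiles with 10 to 19 CpGs the locus averaged 32.6% ± 0.52 in iPSC, 19.4% ± 1.2 at D12 and 47.8% ± 0.07 at D0, against 48.5%, 20.2% and 53.7% elsewhere. In tiles with 5 to 9 CpGs it averaged 48.3% ± 1.7 in iPSC, 26.2% ± 0.77 at D12 and 62.0% ± 0.49 at D0, against 61.9%, 19.5% and 64.4% elsewhere. In the poorest tiles, with 1 to 4 CpGs, it averaged 50.7% ± 0.10 in iPSC, 18.2% ± 0.79 at D12 and 56.9% ± 0.24 at D0, against 57.5%, 15.9% and 58.2% elsewhere. In all 4 classes the iPSC level of the locus was further below its D0 level than that of the other sites was.

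**Figure D4:**
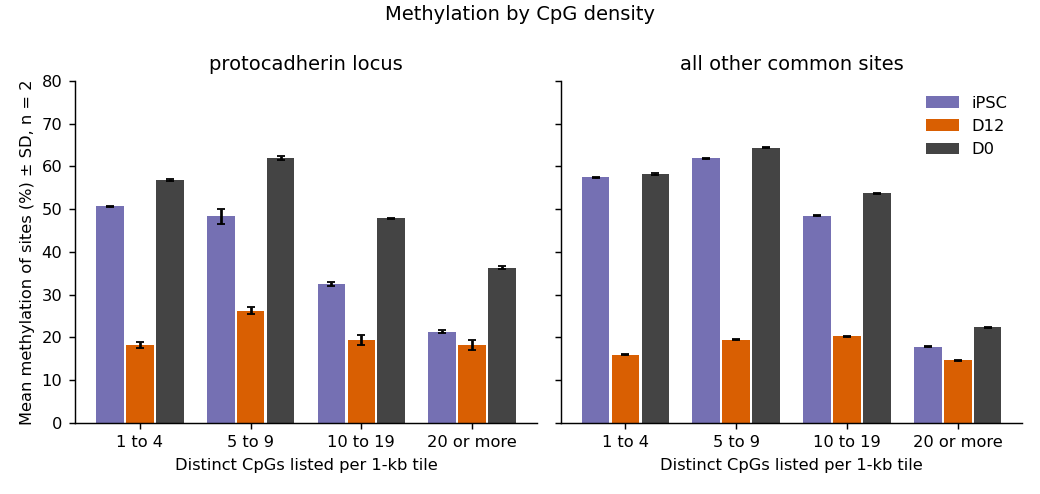
Mean methylation level (%, vertical axis) of selected sites in 4 classes of tiles by the number of CpGs listed per tile (horizontal axis), in the protocadherin locus (left) and all other sites (right), for iPSC, D12 and D0. Bars are means of 2 libraries and error bars are SD. In tiles with 20 or more CpGs the locus has 36.3% at D0 against 22.3% elsewhere, and 21.4% in iPSC against 17.8% elsewhere.

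Within the locus, CpG-rich tiles (20 or more) minus CpG-poor tiles (1 to 9) was -27.9 ± 0.70 points in iPSC, -4.69 ± 0.37 points at D12 and -23.6 ± 0.04 points at D0 (SD, n = 2 each). It differed among the 8 groups (permutation p = 1e-05, adjusted p = 1.25e-05) and without D12 (permutation p = 2e-05, adjusted p = 5e-05). The comparison of the locus with other sites depended on this class. In CpG-rich tiles alone the locus minus other sites was 3.57 points in iPSC, 3.67 points at D12 and 14.0 points at D0. The change from D0 to D12 then turned to -10.3 ± 0.95 points, and that to iPSC was -10.4 ± 0.51 points (SE). In CpG-poor tiles alone the change from D0 to D12 was 6.91 ± 0.58 points and that to iPSC -8.81 ± 0.87 points. The lower position of the locus in iPSC relative to D0 was therefore found in both classes, whereas the smaller loss at D12 was found in the poor class and reversed in the rich one.

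Counts of called tiles are given within the same classes, those at D12 as a description only. Of the 22 locus tiles with 20 or more CpGs, 11 were lower in iPSC than at D0 (50.0%), against 12.1% of all 9417 such tiles, and 16 were lower at D12, against 28.4%. The median D0 level was 37.5% in these locus tiles and 9.87% in all such tiles. A tile below 10% at D0 cannot fall by 10 points, so these shares do not compare tiles of like starting level. Of the 15 tiles with 1 to 4 CpGs, 2 were lower in iPSC, against 4.45% of all such tiles, and all 15 were lower at D12, against 95.1% of such tiles. In gamma 9 of 15 CpG-rich tiles were lower in iPSC, in alpha 2 of 6 and in beta 0 of 1. CpG-rich sites of gamma averaged 21.3% ± 0.55 in iPSC, 21.0% ± 1.2 at D12 and 40.1% ± 0.41 at D0. CpG-rich sites of alpha averaged 13.4% ± 0.42, 13.1% ± 1.6 and 24.2% ± 0.49 in those groups, and in neither part did iPSC and D12 differ beyond the spread between libraries. The beta tile of this class, by contrast, had 67.9% ± 1.7 in iPSC, 20.5% ± 2.2 at D12 and 67.8% ± 0.16 at D0.

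Single sites of the locus were more often at intermediate levels than sites elsewhere, given here as a description without a test. At D0, 53.1% ± 2.2 of the locus sites lay between 20 and 80%, against 24.9% ± 0.4 of the other sites, and 18.9% ± 1.5 lay at 80% or more, against 38.7%. At D12 no selected site of the locus was at 80% or more in either library, against 0.323% of the other sites, and 56.3% ± 2.0 were under 20%, against 63.3% of the other sites. In iPSC 11.03% ± 0.7 of the locus sites were at 80% or more, against 33.4% of the other sites. By part, the share at 80% or more was 3.35% in iPSC and 12.7% at D0 for gamma, 8.49% and 12.5% for alpha, and 36.7% and 46.4% for beta. The share under 20% was 56.1%, 62.7% and 21.2% in iPSC for gamma, alpha and beta, against 22.6%, 40.5% and 20.2% at D0.

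The longest run of neighbouring tiles called the same way lay in gamma, at chr18:37885001-37891000, and was the stretch known beforehand. Its 6 tiles hold 89 selected sites and 126 listed CpGs, and their sites averaged 27.4% ± 0.99 in iPSC, 20.3% ± 0.27 at D12 and 45.9% ± 1.4 at D0. The tiles did not behave alike. The first, at chr18:37885001-37886000, had 27.7% and 32.4% in iPSC, 31.2% and 32.7% at D12 and 59.2% and 63.5% at D0, so that iPSC and D12 overlapped. The fourth, at chr18:37888001-37889000, had 5.10% and 5.09% in iPSC, 10.96% and 8.19% at D12 and 27.8% and 27.2% at D0, with iPSC below D12 in both libraries by 4.48 points on average. The third and the sixth came back further: chr18:37887001-37888000 had 52.3% and 49.8% in iPSC, 30.8% and 28.0% at D12 and 66.4% and 69.8% at D0. The sixth, chr18:37890001-37891000, had 42.0% and 40.2% in iPSC, 18.9% and 12.7% at D12 and 51.9% in both D0 libraries. In the second and the fifth, with 38 and 34 CpGs, iPSC overlapped D12 at means of 17.0% and 20.0% in iPSC, 16.3% and 18.9% at D12 and 31.3% and 35.2% at D0. Against D0, iPSC was called lower in 4 of the 6 tiles, where 9.42% of all tiles were lower. It was called higher than D12 in 2, where 79.8% of all tiles were higher. The run was selected on D12 and D0 libraries that these comparisons use again, so the counts are a description. The calls below D0 in the third and the fifth tile were lost without any 1 of the 4 libraries compared, with edgeR adjusted p between 0.0578 and 0.287. The D12 call of the second was lost without D0 replicate 2 or D12 replicate 2.

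**Figure D5:**
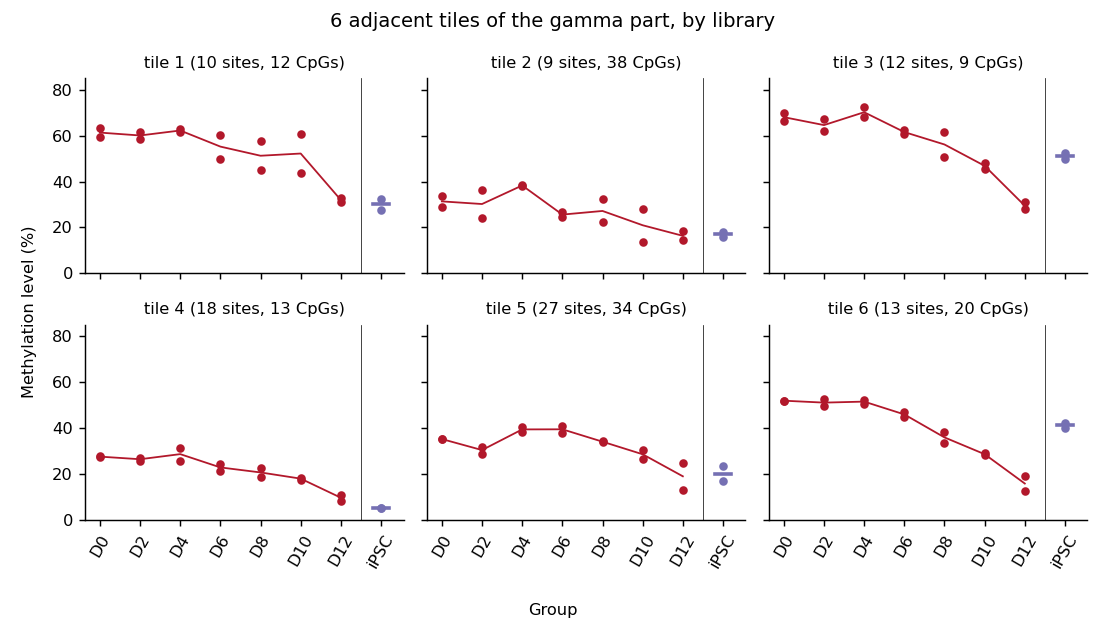
Methylation level (%, vertical axis) of the 6 adjacent gamma tiles in each library (points) by group (horizontal axis: D0 to D12, then iPSC), with the mean of 2 libraries as a line or bar. All 6 decline toward D12, and iPSC stands at 5.10% in the fourth tile and at 51.1% in the third.

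Where the constant exons of alpha and gamma lie in these coordinates was not determined, and the far end of each part was read by position alone. The last 20 kb of alpha held 31 listed sites and 0 of them in all 16 libraries, so no level can be given there. The last 20 kb of gamma held 26 selected sites in 2 tiles, with 8.06% ± 4.6 in iPSC, 9.86% ± 8.4 at D12 and 35.5% ± 1.0 at D0. Of these 26 sites, 25 lay in the tile at chr18:37955001-37956000, named after its values were seen, which had 13.3% and 4.78% in iPSC, 14.8% and 3.74% at D12 and 39.5% and 35.3% at D0. It was called lower in both comparisons with D0, and iPSC and D12 overlapped. The other 512 gamma sites averaged 25.4% ± 1.1 in iPSC, 21.6% ± 0.84 at D12 and 43.5% ± 0.28 at D0. The last 40 kb of gamma, with 70 selected sites in 9 tiles, had 18.7% ± 2.3 in iPSC, 14.3% ± 0.31 at D12 and 29.6% ± 0.73 at D0, so that over this wider stretch the iPSC mean lay above D12.

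The correlation between replicate libraries over single sites of the locus fell with each collection day from D0 to D12. Across the 1015 sites the Pearson correlation (r) of the 2 libraries was 0.913 at D0, 0.898 at D2, 0.871 at D4, 0.842 at D6, 0.770 at D8, then 0.729 at D10 and 0.560 at D12, and 0.892 in iPSC. These are correlations across sites that share their libraries, and sites are not independent replicates. Over all selected sites of the genome the values were 0.964 at D0 and 0.600 at D12, so the decline was not particular to the locus. The median absolute difference between libraries at a site did not follow the same order: it was 6.67 points at D0, 8.00 at D2, 8.89 at D4, 9.33 at D6, 9.62 at D8, 9.13 at D10, 8.63 at D12 and 7.50 in iPSC. No 2 libraries of a group agreed within sampling noise, and none were merged.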

How the data were processed

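RRBS libraries of 16 samples in 8 groups of 2 were read from CpG tables deposited by the authors, 1 per library in the layout of methylKit. Per the file headers each line gives a site's coverage, a count of reads, and, as freqC and freqT, the percent values for C and T at that site, as deposited by the authors. The submitters' processing notes name methylKit, Bowtie2, Bismark 0.23.0 and fastp 0.20.1, with GRCm39 as the build. What was done about trimming, filled-in end cytosines, duplicates and conversion rates was not given in the sources used here. Filled-in cytosines and PCR duplicates, from 15 cycles without molecular identifiers, could shift levels or make reads dependent, so intervals cover counting error only. No site listed had fewer than 10 reads.

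Methylated reads were recovered as coverage times freqC, and all came out whole within 0.005 points. Sites with at least 10 reads in all 16 libraries were kept. The level of a part is the mean over its sites, each counted equally, and that of a tile is its methylated reads over all its reads. Reads were summed over 1-kb tiles with at least 3 sites, and 94337 tiles were fitted with edgeR 4.0.16 in R 4.3.3 (library effects, 1 methylation coefficient per group, 8 residual degrees of freedom). Parts were compared with exact or 100000-fold permutation tests (numpy 2.4.6), and scipy 1.17.1 served the quasi-binomial model. The tile test was also run on simulated data. Members, lists and tests were chosen with earlier results of these data known. Tiles named are the 5 largest called changes per direction in each main comparison, the highest and lowest D12 tile of each part, and runs of at least 4 called tiles. The bounds of alpha, beta and gamma are approximate, and beta holds whatever lies between the other 2 parts. Alternatives were a minimum of 20 reads, other weightings and strands, shifted tiles, a quasi-binomial model, a 25-point minimum, a replicate block, pairwise fits and leaving out each library. Recomputing the levels and differences within CpG classes was added after the data were seen, as was leaving out the D12 libraries. No GRCm39 annotation was used here, so exons and genes, and the list of unclustered protocadherins and regulators meant for comparison, were not analysed here.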

Additional observations from a re-analysis of the deposited data

How the results depend on the processing

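In 150 of 176 comparisons of tile counts under an alternative, the count stayed within 1.5 times the value reported, and 712 of 733 levels and differences kept their direction and their side of the test. Of 521 values of named tiles, 454 stayed called and 67 lost the call, with none reversed.

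The quasi-binomial model called 1 tile higher at D12 and 2 higher in iPSC than D0. With at least 20 reads, 0 tiles were higher in iPSC than D0 and 1 lower than D12. With a 25-point minimum, 15 tiles were lower and 0 higher in iPSC than D0, 1 was lower in iPSC than at D12, and 0 were lower at D6, 13 at D8 and 22 at D10. With the 2 groups fitted alone, 2 tiles were lower at D6. Leaving out each library gave 17 to 19 tiles lower and 0 to 0 higher in iPSC than D0, 2 to 4 lower in iPSC than at D12, 0 to 1 lower at D6, 0 to 1 higher at D8 and 0 to 1 higher at D12.

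Over all sites listed in each library, iPSC minus D12 was -2.41 points in the locus, -5.37 in alpha and -8.84 in gamma, D6 minus D0 was 0.62 in gamma and D4 minus D0 was 2.24 in the locus. With reads pooled over sites, D4 minus D0 was -0.24 in gamma, and gamma minus alpha changed by 3.92 between iPSC and D12. From D0 to D12, gamma minus alpha changed by 3.07 with tiles counted equally and by 1.10 with strands merged. In tiles with 20 or more CpGs, added after the data were seen, D4 minus D0 was 1.19 in the locus, D2 minus D0 was 1.02 in alpha, iPSC minus D0 was 0.14 in beta, D6 minus D0 was 0.61 in gamma, gamma minus alpha changed by 0.058 between iPSC and D12, and the locus minus other sites changed by -10.3 from D0 to D12. In tiles with 1 to 9 CpGs, D4 minus D0 was -0.75 in the locus and -1.64 in alpha. There gamma minus alpha changed by 6.505 from D0 to D12 (permutation p among groups 0.0572), and from D0 to iPSC beta minus alpha changed by -2.45 and gamma minus beta by 1.51. Apart from alternatives that use other sites by construction, the cause was not tested.

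Replicate numbers do not pair libraries by the labels, and same-numbered libraries did not deviate together: over 28 pairs of groups the correlation of deviations lay between -0.0144 and 0.00778. With a replicate block, 55 tiles were lower at D12, and 26 were lower and 1 higher in iPSC than D0. Depth limits single tiles: some rest on 3 sites, and with 2 libraries a group no single level difference can pass an exact test.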
